A study of Bos grunniens with 12 samples.

Results

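The cytoplasmic ribosomal protein genes were taken from the gene table of yak testis as every row whose symbol starts with RPL or RPS and a digit, together with RPSA, RPLP0, RPLP1 and RPLP2, and without the S6 kinases whose symbols start with RPS6K. The rule found 36 gene identifiers under 29 symbols among the 20953 identifiers of the table, and RPLP2 was not among them. Testes of domesticated yak (Bos grunniens) were studied at ages of 1.5 and 5 years, with 3 animals per age, to describe m6A, a methyl mark on adenosines of mRNA, around sexual maturity. Each of the 6 testes gave an input library of fragmented poly(A) RNA and a library of RNA bound by an m6A antibody, 12 libraries in all, and the gene table holds the input libraries. The animals were healthy and came from 1 place, and the record names no treatment. The testes of 1.5 years were obtained by castration and those of 5 years after slaughter by the record, or euthanasia by the study's methods, so that age and the way of collection cannot be told apart. The libraries are called 18M and 5Y here after their titles. The titles and the ages in the record place 18M before and 5Y after maturity, whereas the developmental stage entry of every sample names the opposite stage, so the comparison is between libraries labelled 18M and 5Y and no direction over maturation is drawn.

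The ribosome is built from a small and a large subunit, each a core of ribosomal RNA coated by ribosomal proteins. The small subunit decodes the mRNA, the large subunit joins the amino acids, and the stalk of the large subunit, made by RPLP0 with RPLP1 and RPLP2, recruits the translation factors. Ribosomal protein mRNAs are among the most abundant of any cell and their translation is controlled as a group, through a pyrimidine tract at their start that responds to mTOR. Mammals also hold a few paralog forms with narrow expression, among them RPL10L, an intronless relative of the X-linked RPL10 that is used in the testis while the X chromosome is silent in meiosis, and RPL3L of striated muscle.

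Values are FPKM, the fragments of a gene divided by the length of its transcript and by the size of the library, and they set the level of 1 gene beside that of another per length. The FPKM of all genes summed to between 133504 and 139921 in the 18M libraries and to between 116187 and 131024 in the 5Y libraries, and the number of fragments behind a value was not known. The 18M libraries resembled each other with Pearson r between 0.95 and 0.96 over the log2 values of the 12437 genes tested. 5Y replicate 1 stood apart with r between 0.82 and 0.84 to the 18M libraries, whereas 5Y replicate 2 had r between 0.94 and 0.95 to them and 0.87 to 5Y replicate 1. Testis markers were present in all libraries. The spermatid markers were lower in the 5Y libraries: TNP1, which replaces histones in elongating spermatids, had 883, 852 and 879 FPKM in the 18M libraries and 201, 641 and 550 FPKM in the 5Y libraries. Since spermatids form only once spermatogenesis has begun, this order goes against the ages in the titles. TNP1 was at 201 FPKM or more in every library, so neither group lacked spermatid transcripts. Which of the labels is right cannot be told apart here.

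The symbols were checked against the annotation of their rows. Of the 36 identifiers, 25 carried a term of the ribosome (a structural constituent of the ribosome, a cytosolic ribosomal subunit or the ribosome pathway) and 11 did not. Among the 11 without it were RPS19BP1, RPL31, RPL32, all 4 identifiers of RPS9, and the weaker identifier of RPSA, RPS3A and RPL29. In the table as a whole, 3871 symbols stood on more than 1 identifier and no symbol cell was empty. RPL31, for example, carried the terms of a GTPase activator, so that the symbol and the terms of its row differ. Of 77 core ribosomal protein symbols of mammals, 25 had an identifier in the table, 9 of 31 of the small subunit and 16 of 46 of the large subunit, and the others were not analysed here under their own symbol. A further 226 identifiers were annotated to a cytosolic ribosomal subunit under a symbol of another gene.

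The members were among the most abundant mRNAs of the testis. Of the 36 identifiers, 22 were in the highest 10% of the 20953 mean levels and 10 were in the highest 1%. A mean of at least 0.5 FPKM over the 6 libraries, the limit for testing, was reached by 29 identifiers of 28 symbols, and their means ran from 0.874 to 499.6 FPKM with a median of 42.8 FPKM, against a median of 4.34 FPKM over all genes tested. Several identifiers stood under 5 of the symbols, and RPSA was the one symbol with more than 1 that was tested.

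**Figure D1:**
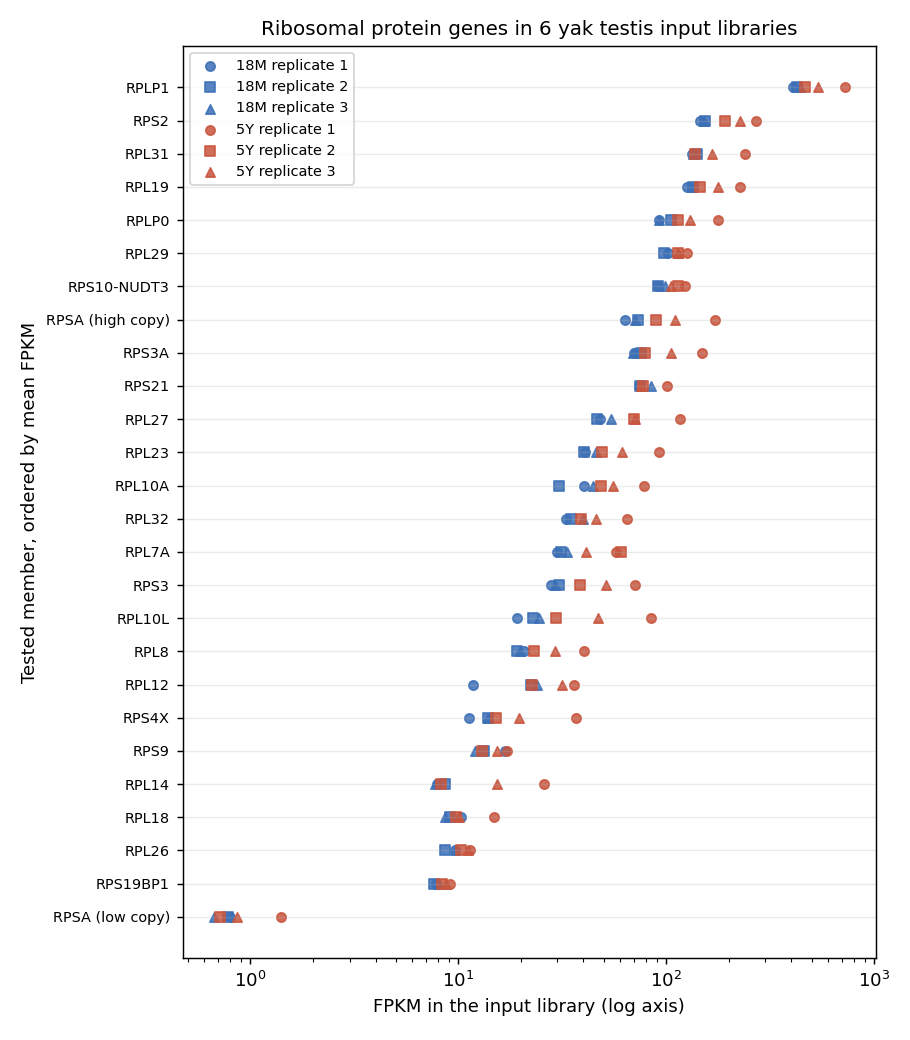
FPKM of 26 of the 29 tested ribosomal protein identifiers (vertical axis, ordered by mean) in each input library (horizontal axis, log scale), with 18M libraries in blue and 5Y libraries in red and the replicates as circle, square and triangle; RPSA appears for its strong (high copy) and its weak (low copy) identifier. RPLP1 is at the top with 408 to 721 FPKM, and the circle of 5Y replicate 1 is the rightmost point of 25 of the members drawn.

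All 29 tested members had a higher fitted level in the 5Y than in the 18M libraries, and none passed the test after adjustment over all genes. The log2 fold changes (5Y minus 18M) ran from 0.11 to 1.15 with a median of 0.59, whereas the median over all 12437 genes was 0.04 and 53.5% of the genes had a log2 fold change above 0. With limma at an unadjusted p under 0.05, 15 members were higher in the 5Y libraries, beside 14.2% of all genes, and 0 were lower, beside 10.9% of all genes. At a Benjamini-Hochberg adjusted p under 0.05, limma called 0 members, beside 0.0322% of all genes (4 genes), and the lowest adjusted p of a member was 0.154. All 5Y values lay above all 18M values for 20 members, beside 19.8% of all genes, and below them for 0 members, beside 13.9%. The groups overlapped in the other 9. These counts turned on single libraries: 6, 7 and 9 members were higher at an unadjusted p without 18M replicate 1, 2 and 3, and 7 without 5Y replicate 3, beside 9.44%, 9.62%, 8.37% and 8.35% of all genes tested. Without 5Y replicate 1 the count was 14, beside 9.85% of all genes. Without 5Y replicate 2 it was 21, beside 21.8%, and 13 members passed the adjusted threshold, beside 20.3% of all genes tested.

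**Figure D2:**
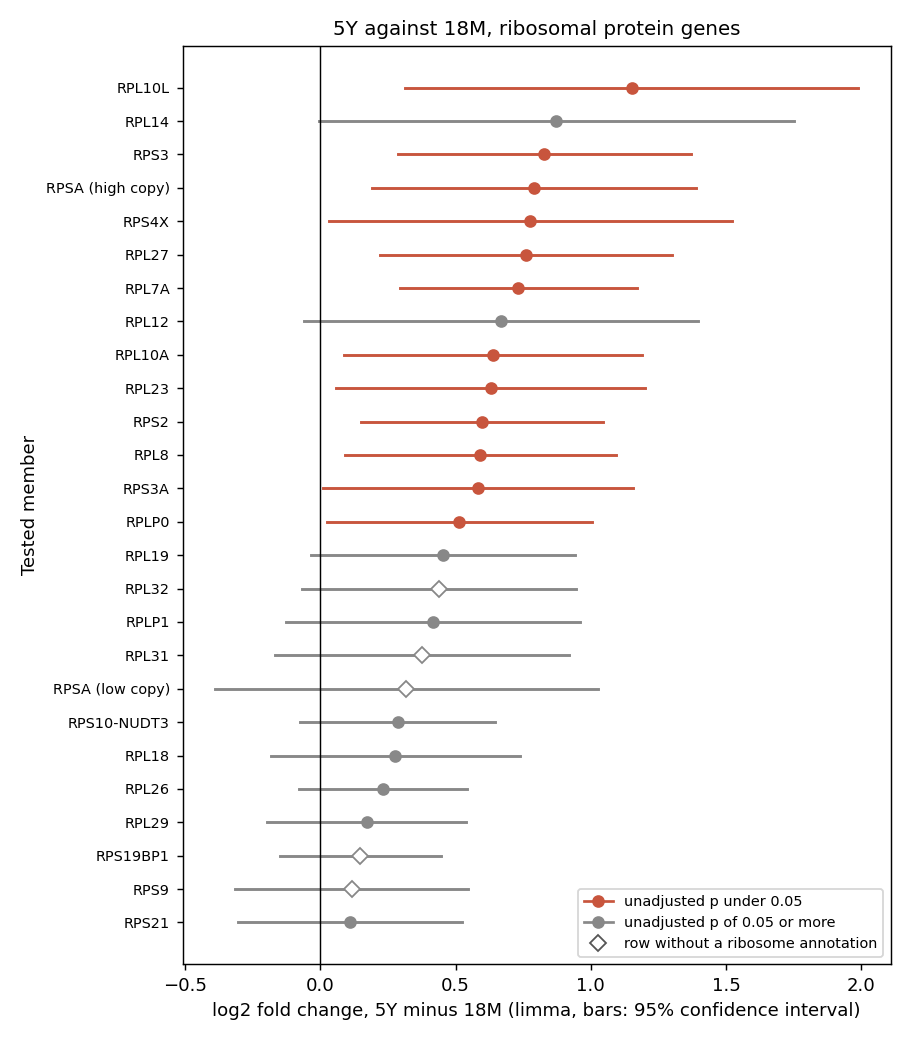
log2 fold change of 26 of the 29 tested members (5Y minus 18M, horizontal axis) with its 95% confidence interval from limma; red marks an unadjusted p under 0.05, and white diamonds mark identifiers without a ribosome annotation. All points lie right of 0, between 0.11 for RPS21 and 1.15 for RPL10L, and none has an adjusted p under 0.05.

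The small subunit had 11 tested members, with a median log2 fold change of 0.60. At an unadjusted p, 7 were higher in the 5Y libraries, beside 14.2% of all genes. All 5Y values lay above all 18M values for 8, beside 19.8% of all genes. RPS3, which lies at the mRNA entry and also has a role in DNA repair, had 28.1, 30.4 and 29.2 FPKM in the 18M libraries and 70.7, 38.4 and 51.6 FPKM in the 5Y libraries (log2 fold change 0.83 ± 0.23 SE, limma unadjusted p = 0.00828). RPSA, the laminin receptor homologue of the small subunit, had 63.3, 72.9 and 71.1 against 172, 89.7 and 109.9 FPKM on its strong identifier (ENSBGRG00000007397), a log2 fold change of 0.79 ± 0.25 SE with an unadjusted limma p of 0.0167. In both genes the 18M libraries lay close together and the 5Y libraries spread widely, with 5Y replicate 1 highest and replicate 2 lowest.

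RPS4X, the X-linked form of the S4 protein, had 11.3, 13.9 and 13.8 against 36.9, 15.2 and 19.5 FPKM (log2 fold change 0.78 ± 0.32 SE, limma adjusted p = 0.189). Its 5Y replicate 2 was only just above its highest 18M library, and its other 5Y libraries lay well apart.

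RPS2, the most abundant member of the small subunit, had 145, 153 and 152 FPKM in the 18M libraries and 271, 192 and 226 FPKM in the 5Y libraries (log2 fold change 0.60 ± 0.19 SE, limma adjusted p = 0.156). RPS3A had 69.8, 75.9 and 69.6 against 149, 79.2 and 105 FPKM on its strong identifier (ENSBGRG00000012777), with a log2 fold change of 0.58 ± 0.24 SE and an adjusted limma p of 0.195. The remaining identifiers of this subunit had log2 fold changes of at most 0.32. RPS10-NUDT3, a symbol for a read-through of RPS10 into its neighbour, had 91.3, 90.9 and 98.3 against 123, 114 and 106 FPKM without overlap (log2 fold change 0.29, limma unadjusted p = 0.102).

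RPS21 had the smallest log2 fold change of the tested members, 0.11 ± 0.18 SE (limma unadjusted p = 0.550), from 74.1, 74.5 and 84.6 FPKM in the 18M libraries and 100.6, 77.3 and 75.6 FPKM in the 5Y libraries. Only 5Y replicate 1 was above the 18M range, and without that library the log2 fold change was -0.022. RPS9 had 16.7, 13.4 and 12.0 against 17.1, 13.0 and 15.4 FPKM on the only one of its identifiers that was tested (ENSBGRG00000019081), which has no ribosome annotation, and its groups overlapped. RPS21, RPL7A and RPL14 are singled out here after their values were seen. RPL8, RPL10A, RPL12, RPL23, RPL32 and RPS10-NUDT3 are also given outside the rule for named members.

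The large subunit had 17 tested members, with a median log2 fold change of 0.59, nearly that of the small subunit. At an unadjusted p, 8 were higher in the 5Y libraries, beside 14.2% of all genes. All 5Y values lay above all 18M values for 11, beside 19.8% of all genes. The largest log2 fold change of all members was that of the row under the symbol RPL10L, a paralog form known from male germ cells. The row has a ribosome annotation, and no member stood under RPL10. Which cells held its mRNA was not tested. RPL10L (ENSBGRG00000023896) had 19.2, 22.8 and 24.4 FPKM in the 18M libraries and 84.2, 29.7 and 47.0 FPKM in the 5Y libraries. The log2 fold change was 1.15 ± 0.36 SE, with an unadjusted p of 0.0140 and an adjusted p of 0.154 in limma. 5Y replicate 1 was 3.81 times the 18M mean, replicate 3 was 2.12 times and replicate 2 was 1.34 times, and without replicate 1 the log2 fold change was 0.76 ± 0.22 SE. The other paralog form in the table, RPL3L (ENSBGRG00000026001), stayed between 0.0432 and 0.286 FPKM in all libraries and was not tested.

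RPL27 had 47.8, 46.3 and 54.0 against 116.6, 70.3 and 71.0 FPKM (log2 fold change 0.76 ± 0.23 SE, limma unadjusted p = 0.0125). All 5Y libraries were clearly above the 18M libraries, and replicates 2 and 3 were nearly equal. RPL7A, whose introns host small nucleolar RNAs, had 29.9, 31.2 and 33.2 against 57.6, 60.4 and 41.1 FPKM (log2 fold change 0.73 ± 0.19 SE, limma unadjusted p = 0.00527), and it was the one tested member whose highest library was 5Y replicate 2 rather than replicate 1.

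RPL14 had a larger log2 fold change than RPL27, 0.87 ± 0.37 SE, but its groups overlapped. It had 7.94, 8.63 and 7.72 FPKM in the 18M libraries and 25.9, 8.30 and 15.3 FPKM in the 5Y libraries, so that 5Y replicate 2 lay within the 18M range and the unadjusted limma p was 0.0513. RPL10A, RPL23 and RPL8 had log2 fold changes of 0.64, 0.63 and 0.59 at unadjusted p values of 0.0284, 0.0347 and 0.0267 in limma. RPL12 had 0.67 with a low first 18M library, at 11.8 FPKM against 22.4 and 23.9 FPKM in the other two, and its groups overlapped.

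The stalk genes were among the most abundant of the large subunit. RPLP1, an acidic protein of the stalk tip, had the highest level of all members, with 408, 426 and 439 FPKM in the 18M libraries and 721, 467 and 538 FPKM in the 5Y libraries. Its groups did not overlap, but with a log2 fold change of 0.42 ± 0.23 SE the limma unadjusted p was 0.113. RPLP0, the base of the stalk, had 92.0, 105 and 92.5 against 177, 113 and 130.2 FPKM (log2 fold change 0.51 ± 0.21 SE, unadjusted p = 0.0418 and adjusted p = 0.187 in limma). RPLP1 made up 23.9% to 24.0% of the summed member FPKM in the 18M libraries and 22.4% to 22.7% in the 5Y libraries.

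RPL19 had 126, 135 and 134 FPKM in the 18M libraries and 228, 145 and 178 FPKM in the 5Y libraries (log2 fold change 0.45 ± 0.21 SE, limma unadjusted p = 0.0644). RPL31 had 134, 141 and 134 against 240, 138 and 167 FPKM (log2 fold change 0.38 ± 0.23 SE, limma unadjusted p = 0.147), with 5Y replicate 2 inside the 18M range. At the low end, RPL26 had 9.63, 8.63 and 9.64 against 11.4, 10.3 and 11.1 FPKM (log2 fold change 0.23 ± 0.13 SE). RPL18 had 10.3, 9.09 and 8.61 against 14.8, 9.76 and 10.1 FPKM (log2 fold change 0.28 ± 0.20 SE). RPL32 had a log2 fold change of 0.44 and the strong identifier of RPL29 one of 0.17, and the groups of both overlapped. RPS19BP1, which the symbol rule catches although it encodes a regulator of the deacetylase SIRT1 and no structural protein of the ribosome, had 7.85, 7.67 and 8.12 against 9.13, 8.34 and 8.75 FPKM (log2 fold change 0.15 ± 0.13 SE).

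Symbols on several identifiers had 1 strong identifier and otherwise weak ones. The weak RPSA identifier (ENSBGRG00000007505) had 0.802, 0.784 and 0.669 FPKM in the 18M libraries and 1.41, 0.718 and 0.864 FPKM in the 5Y libraries (log2 fold change 0.32 ± 0.30 SE). The weak RPS3A identifier was at most 0.244 FPKM in any library, and the 3 weak RPS9 identifiers at most 0.0809 FPKM, with 1 of them (ENSBGRG00000019290) listed at 0 in all 6. The weak RPL29 identifier (ENSBGRG00000026040) was the one member with all 18M values above all 5Y values, with 0.787, 0.735 and 0.752 FPKM in the 18M libraries against 0, 0 and 0.620 FPKM. It was under the limit for testing, carries no ribosome annotation and ran opposite to the strong RPL29 identifier, which had 103, 98.1 and 115 against 126, 114 and 114 FPKM. Of 9 genes mutated in inherited Diamond-Blackfan anaemia (among them RPS19, RPS26, RPS24, RPL5, RPL11, RPL35A, RPS10 and RPS7), 0 had an identifier under their own symbol.

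The members kept one order across the 5Y libraries. 5Y replicate 1 was the highest of all 6 libraries in 28 of the 29 tested members, beside 33.7% of all genes tested. Replicate 1 was above replicate 3 and replicate 3 above replicate 2 in 26 members, beside 29.9% of all genes tested. Relative to the 18M mean of each member, the median fold was 1.85 in 5Y replicate 1, 1.16 in replicate 2 and 1.44 in replicate 3, while the medians over all genes tested were 1.01, 1.01 and 1.06. 5Y replicate 1 was above every 18M library in all 29 tested members, replicate 3 in 25 and replicate 2 in 20, beside 42.8%, 42.6% and 31.8% of all genes tested. The 18M libraries, in contrast, differed little, with median log2 differences from their own mean of -0.04, 0.01 and 0.04.

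**Figure D3:**
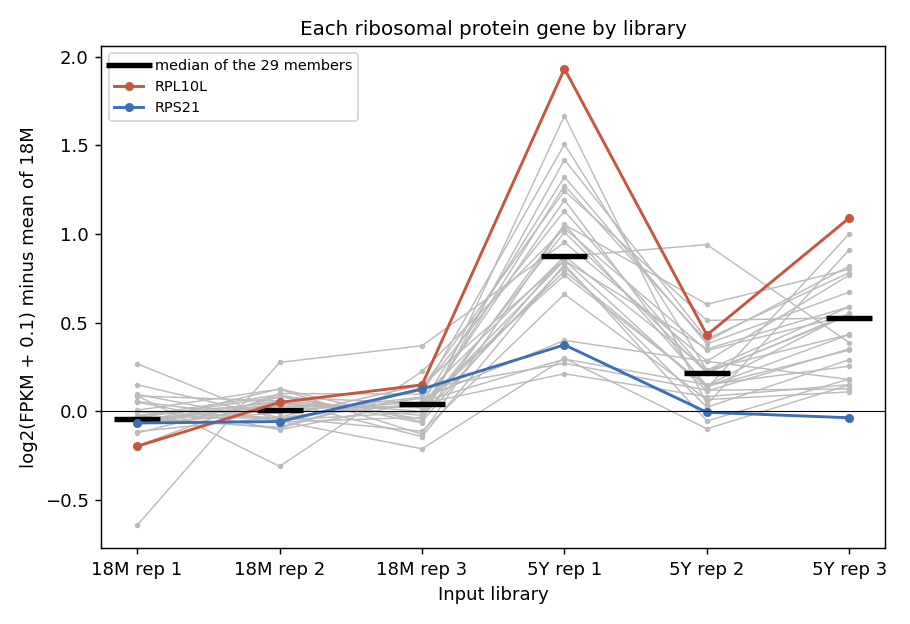
log2(FPKM + 0.1) of each tested member minus its mean over the 18M libraries (vertical axis) in the 6 input libraries (horizontal axis), with black bars for the median of the 29 members, RPL10L in red and RPS21 in blue. The medians are -0.04, 0.01 and 0.04 in the 18M libraries and 0.87, 0.21 and 0.53 in the 5Y libraries.

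The spread between replicates thus differed between the groups. The median coefficient of variation of a member was 7.37% in the 18M libraries and 25.5% in the 5Y libraries, and it was larger in the 5Y libraries for 25 of 29 members. Over all genes tested the medians were 12.3% and 23.1%, and 73.2% of genes had the larger one in the 5Y libraries. The order of the members by level was kept between libraries, with Spearman's rho between 0.967 and 0.993 over the 29 tested members for every pair of libraries, whereas all tested genes had between 0.835 and 0.970. These are correlations across genes of the same libraries and are given as a description.

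The FPKM of all 36 members summed to 1708, 1776 and 1828 in the 18M libraries and to 3224, 2055 and 2379 in the 5Y libraries (1770 ± 60.0 against 2553 ± 604, SD, n = 3 each), a fold of 1.44 between the means. This was 1.22% to 1.33% of the summed FPKM of the 18M libraries and 2.78%, 1.57% and 1.84% of that of 5Y replicates 1, 2 and 3. The sums did not overlap, and the lowest 5Y sum, that of replicate 2, was 1.16 times the 18M mean. Without 5Y replicate 1 the fold was 1.25. The 5 members with the highest means, RPLP1, RPS2, RPL31, RPL19 and RPLP0, made up between 50.7% and 54.1% of the sum in every library. In whole testis, fewer cells of a type and less RNA of a gene per cell cannot be told apart.

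Identifiers annotated to a cytosolic ribosomal subunit under another symbol had the same order of 5Y libraries as the members. Their FPKM summed to 3182, 3089 and 3357 in the 18M libraries and to 4960, 3526 and 3854 in the 5Y libraries. Of the 226 such identifiers, 115 were tested, with a median log2 fold change of 0.37. It was above 0 for 91 of them, beside 53.5% of all genes. At an unadjusted p in limma, 33 were higher and 5 lower in the 5Y libraries, beside 14.2% and 10.9% of all genes. Restricting the members to the 24 tested identifiers with a ribosome annotation left a median of 0.63. Of these, 15 were higher at an unadjusted p, beside 14.2% of all genes. All 5Y values lay above all 18M values for 19, beside 19.8% of all genes.

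Genes that work with the ribosome had smaller median log2 fold changes than the members. Of 3 tested elongation factor genes none was past an unadjusted p of 0.05, and EEF2, which moves the ribosome along the mRNA, had 105, 109.5 and 99.6 against 125, 100.2 and 113 FPKM. EIF5A2 and EEF1A2 had log2 fold changes of 0.29 and -0.52. Of 5 other tested mRNAs with a pyrimidine tract, 1 was higher at an unadjusted p, beside 14.2% of all genes. The gene was VIM, the intermediate filament protein of somatic cells, at a log2 fold change of 1.14. PABPC1, the poly(A)-binding protein, ran the other way at -0.24, and EIF3E and EIF3H had 0.26 and 0.11.

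Of 23 tested ribosome biogenesis genes, 19 had a log2 fold change above 0, beside 53.5% of all genes, with a median of 0.21. At an unadjusted p in limma, 3 were higher in the 5Y libraries, beside 14.2% of all genes. These were HEATR3, BOP1 and GNL3, at 1.20, 0.70 and 0.37. The most abundant of them, PNO1, PES1 and WDR12, which mature the subunits, had -0.01, -0.06 and 0.05. Among 9 tested regulators of ribosome production, the median was 0.11 and 1 was higher at an unadjusted p, beside 14.2% of all genes. The gene was MDM2, which ribosomal proteins bind when assembly fails, at 0.62. POLR1A, the large subunit of RNA polymerase I, had 26.7, 24.9 and 22.6 against 19.9, 30.0 and 25.2 FPKM. EIF4EBP2 had 0.32 and MTOR had -0.23.

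Mitochondrial ribosomal protein genes serve the separate ribosome of mitochondria. Their FPKM summed to 942, 969 and 954 in the 18M libraries and to 791, 885 and 858 in the 5Y libraries, lower in each 5Y library than in any 18M library. This difference rested on 1 symbol: without MRPL42 the sums were 720.3, 681 and 707 against 705, 706 and 714, and the groups overlapped. Of 73 tested identifiers, 51 had a log2 fold change above 0, beside 53.5% of all genes, and the median was 0.12. At an unadjusted p in limma, 8 were higher and 4 lower, beside 14.2% and 10.9% of all genes. MRPL42, the most abundant, had 212, 282 and 241 against 82.1, 172 and 136 FPKM on a row without a ribosome annotation, means of 245 and 130.1 FPKM. MRPL57 and MRPL53 had log2 fold changes of -0.36 and 0.05.

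Markers of Sertoli cells, of peritubular and stromal cells and of spermatogonia had the same order of 5Y libraries as the members. Those of spermatids ran the other way. All 6 tested Sertoli cell markers were higher in the 5Y libraries at an unadjusted p (median log2 fold change 0.84), and their FPKM summed to between 73.4 and 85.7 in the 18M libraries and to 254, 107 and 133 in the 5Y libraries. Of 6 peritubular and stromal markers 5 were higher at an unadjusted p (median 0.88), with sums between 23.8 and 26.6 in the 18M libraries and of 56.9, 34.7 and 47.1 in the 5Y libraries. Over all genes tested, 14.2% were higher at an unadjusted p. In both lists 5Y replicate 1 was highest and replicate 2 lowest of the 5Y libraries. That order of the 5Y libraries was held by 29.9% of all genes tested.

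The 6 spermatogonial markers had log2 fold changes above 0 with a median of 0.33 and none past an unadjusted p, and their sums were 51.8 to 60.4 against 112, 60.2 and 67.7. The 8 spermatocyte markers had a median of 0.04 and none past an unadjusted p, with sums of 93.0 to 97.6 against 78.2, 96.7 and 90.8. Of 7 round spermatid markers 4 were lower at an unadjusted p (median -1.21, sums 303 to 378 against 96.3, 304 and 175). Of 5 elongating spermatid markers 4 were lower (median -1.08, sums 1254 to 1307 against 295, 932 and 810). Over all genes tested, 10.9% were lower at an unadjusted p.

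At an unadjusted p in limma, 2 of 4 macrophage markers (AIF1 and CD163) and 1 of 2 Leydig cell markers (STAR) were lower, beside 10.9% of all genes. The rest of these lists was not lower. The macrophage markers CD68 and CSF1R had log2 fold changes of 0.0027 and 0.58, and the Leydig cell marker CYP11A1 had 0.12. Their groups overlapped, and none was past an unadjusted p. Of 4 endothelial markers, 0 were past an unadjusted p. The 2 erythroid markers in the table were at most 0.825 FPKM in any library and were not tested. The part of the cell makeup in the values of the ribosomal protein genes was not tested.

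**Figure D4:**
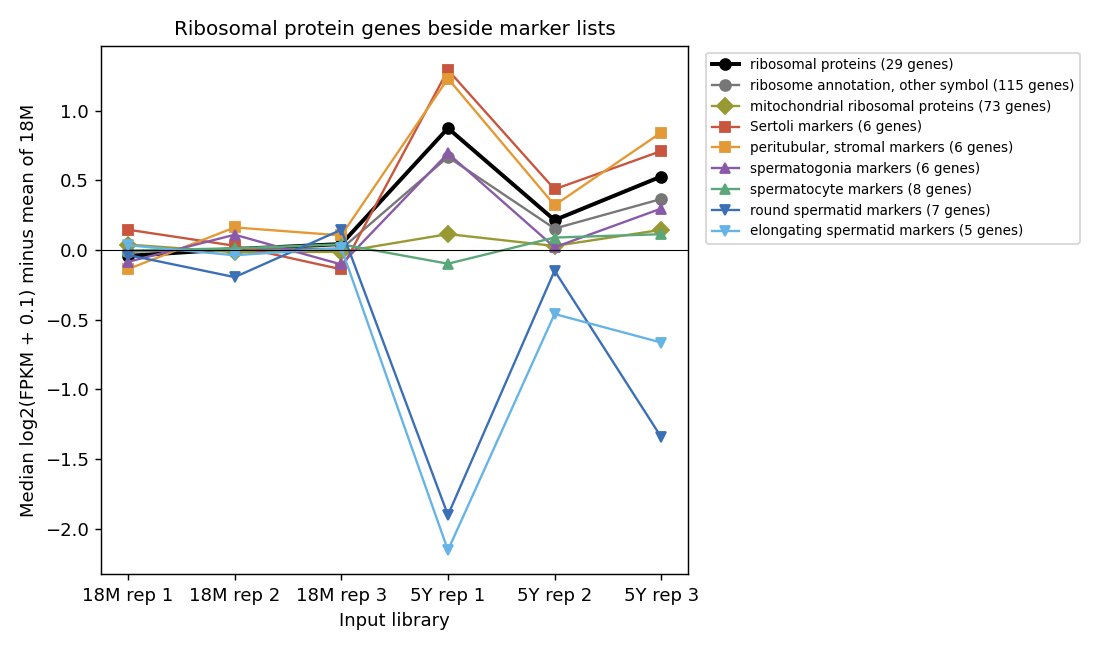
Median log2(FPKM + 0.1) minus the mean of the 18M libraries (vertical axis) over the tested genes of each list, in the 6 input libraries (horizontal axis); the black line is the 29 ribosomal protein identifiers. The members lie at 0.87, 0.21 and 0.53 in 5Y replicates 1, 2 and 3, the Sertoli markers at 1.29, 0.44 and 0.71 in the same order, and both spermatid lists lie below 0.

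One member carried an m6A peak that the authors' comparison of the ages called differential, beside 5.63% of all identifiers of the table and 9.29% of the tested genes. It was RPL31, the identifier with the terms of a GTPase activator. The peak was at chromosome 9, 23817951 to 23818100 (150 bp, build LU_Bosgru_v3.0), in a 3′ UTR of a gene on the plus strand from 23810938 to 23832981, 7013 bp from its start site. The table gives neither a direction nor a value per library for a peak, so the methylation of the members was not compared between the groups.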

How the data were processed

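The authors deposited FPKM per gene for each of the 6 input libraries, and the libraries of the m6A antibody had no value per gene. Per the methods, reads were trimmed with Trimmomatic, cleared of rRNA with SortMeRNA and aligned with HISAT2 (version 2.0.4 per the labels) to LU_Bosgru_v3.0, and reads that mapped to more than 1 place were left out, which can lower genes with processed pseudogenes, as ribosomal protein genes have. The program that computed FPKM is not given in the sources used here. Positions and widths of peaks in bp were deposited by the authors from MeTDiff and ChIPseeker. FPKM hold no depth, so no counting interval or floor was computed, and the intervals of log2 fold changes are those of limma.

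Samples were grouped by title. The log2(FPKM + 0.1) of genes with a mean of at least 0.5 FPKM was fitted by limma (version 3.58.1, R 4.3.3, lmFit, then eBayes with a trend), two-sided, with Benjamini-Hochberg adjustment over all 12437 genes tested. On this scale the change of low genes is understated. The ages were sampled from different animals, and nothing says that equal numbers in the titles match them. P-values measure the spread between these libraries. The steps were tested on simulated data. Tables were made with Python 3.11.15, pandas 2.3.3 and numpy 2.4.6, and figures with matplotlib 3.10.9.

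The members, the gene lists and the marker lists were chosen with earlier results of these data known. The rule for named members took the paralog forms, RPS19BP1, and the 5 highest and 5 lowest mean levels. It took the 8 largest log2 fold changes in each direction at an unadjusted p under 0.05 without overlap (no member was lower). Members with a peak, RPSA, the stalk and the Diamond-Blackfan genes, and symbols on several identifiers were also taken. Other lists are given by counts with their 3 most abundant genes, and genes past an unadjusted p are named beside them. Lists take 1 identifier per symbol, the strongest, except the mitochondrial and the annotation lists. RefSeq symbols (assembly Bosgru_T2T1.0) held 72 of the 77 core symbols. Some genes that this choice selects are not reported here by name or drawn with a label. No sequence is shown. Alternatives were other pseudocounts, filters, scalings and forms of eBayes, a replicate block, summed identifiers, each library left out, and, chosen after seeing the data, the sets defined by annotation and the sum without RPLP1.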

Additional observations from a re-analysis of the deposited data

How the results depend on the processing

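Over 16 other fits of the single genes, RPS3, RPL7A, RPL27 and RPL10L were among those with an unadjusted limma p under 0.05 in every one. RPS21 changed sign, to -0.022, without 5Y replicate 1, and was at most 0.18 without any other library. The count of members higher at an unadjusted p was 15 in the main fit, beside 14.2% of all genes. It was also 15 with a pseudocount of 1 (14.1%) or 0.01 (14.2%) and with a mean of at least 1 FPKM (14.0%). Upper quartile scaling (15.2%) and robust eBayes (14.1%) left it at 15 as well. With no filter (11.5%) and with eBayes without a trend (14.1%) it was 13. Summing the identifiers of a symbol gave 16, for which no share was computed. Quantile normalization gave 20 (12.6%), and scaling each library to the same sum gave 21 (19.4%). That scaling moved the median of all genes from 0.04 to 0.17 and that of the members to 0.72. With no filter 1 member was lower, the weak RPL29 identifier. Leaving out 1 library at a time gave 6 to 21 members higher and 0 to 13 past the adjusted threshold, with medians of 0.36 to 0.69 and folds of the summed FPKM of 1.25 to 1.58. The 13 were called without 5Y replicate 2. Among the 136 tested identifiers annotated to a cytosolic ribosomal subunit, a set chosen after seeing the data, 46 were higher and 5 lower. The shares of all genes were 14.2% and 10.9%. The sum without RPLP1 had a fold of 1.47, and the count of members with a peak stayed at 1 with short peaks alone and with overlapping peaks merged. With the replicate block, 11 members were higher, beside 11.3% of all genes, and 0 passed adjustment. Libraries with the same number had deviations with r of -0.022, -0.091 and 0.0067 over the tested genes. Libraries of unlike number had r between -0.13 and 0.14. The animals of the ages were different, and these values cannot decide whether equal numbers mark matched animals. FPKM without depth limits what can be said of the weak identifiers.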
